A study of Mus musculus with 4 samples.

Results

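Of 194621 tiles of 1000 bases in which at least 5 CpGs were listed for both R1 and Tet/Tet neurons, 512 (0.263%) lay 5 percentage points or more above their R1 level in the Tet/Tet neurons. A tile's level was the unweighted mean of the methylation percentages at its CpGs. The same table held 180348 tiles (92.7%) that were at least 5 points lower in Tet/Tet neurons, and the median difference over all tiles was -73.9 points. The 512 tiles are the small exception to that fall, and they were chosen by their neuron values, so those values are given as a description without a test.

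Methylation had been measured by reduced representation bisulfite sequencing (RRBS) in 4 libraries, 1 per condition: R1 ESCs, Tet/Tet ESCs and the neurons derived from each. R1 is a wild-type mouse embryonic stem cell (ESC) line. Tet/Tet ESCs were made from R1 by inserting tet-off constructs at Dnmt1 and overexpress DNMT1 according to the study. They were kept in puromycin (1 µg/ml) and neomycin (150 µg/ml), which R1 cells did not receive. For neurons, embryoid bodies were grown for 2 days and then held in Ndiff227 medium for 10 to 15 days per the labels. The Tet/Tet genotype is represented by 1 line and the neurons by mixed cultures, so genotype, drug selection and culture cannot be told apart. ESC and neuron libraries carried the names of different sequencing projects and, per the labels, their DNA was extracted in different ways, so cell type cannot be told apart from these. The tables hold no expression values with which the labelled cell types could be checked against marker genes, and they hold no read depth, which is unknown at every site.

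In mammals, DNA methylation is found mainly at CpG dinucleotides. DNMT1 copies the pattern to the new strand after replication, while DNMT3A and DNMT3B place methyl groups on unmethylated DNA and the TET enzymes oxidise them. Most of the genome is methylated in differentiated cells, but CpG islands, the CpG-rich stretches at many gene starts, usually are not, and methylation of an island is known to go with silencing of its gene. RRBS cuts at CCGG with MspI and sequences short fragments, which concentrates reads on such stretches.

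The sequences of 8 stretches are shown because each holds a cluster of at least 4 CpGs that were higher together. They are not typical: 7 of these 8 tiles stayed at least 5 points higher without their CpG of the largest difference, which holds for 199 of the 512 tiles. Each was read from the plus strand of the mm10 sequence, from 10 bases before the first such CpG to 10 bases after the last, and capitals mark the CpGs at which Tet/Tet neurons were at least 5 points above R1 neurons. CpGs in lower case either differed by less or were not listed in both tables. Atrx encodes an X-linked chromatin remodeller, Foxp4 a forkhead transcription factor, Map9 and Mapt microtubule-associated proteins (Mapt is tau), Tesk2 a protein kinase, and Hoxc11 a homeobox transcription factor. The CpG with the largest difference lay in an intron of the named gene at Atrx, Mapt and Hoxc11. At Tesk2 it lay before the gene start, in an intron of an overlapping gene, and in the others outside annotated genes. The tile near Gm46404, a long non-coding RNA gene, lay 3066 bases from its start, and the one near the pseudogene Gm7054 lay 95936 bases away.
Atrx, chrX:105928777-105928840: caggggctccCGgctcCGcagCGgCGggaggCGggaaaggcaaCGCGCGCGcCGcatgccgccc
Foxp4, chr17:47925220-47925304: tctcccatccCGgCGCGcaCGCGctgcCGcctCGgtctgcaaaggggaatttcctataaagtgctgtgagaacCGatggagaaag
Map9, chr3:82357814-82357939: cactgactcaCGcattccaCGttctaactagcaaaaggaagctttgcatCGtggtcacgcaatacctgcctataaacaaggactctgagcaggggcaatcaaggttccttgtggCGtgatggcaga
Tesk2, chr4:116720662-116720774: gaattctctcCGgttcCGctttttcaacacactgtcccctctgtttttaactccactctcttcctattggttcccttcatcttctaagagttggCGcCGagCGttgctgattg
Mapt, chr11:104319402-104319523: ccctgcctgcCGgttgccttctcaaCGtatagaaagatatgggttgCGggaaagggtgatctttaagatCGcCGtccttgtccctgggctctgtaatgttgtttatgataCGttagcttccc
near Gm46404, chr13:23449323-23449458: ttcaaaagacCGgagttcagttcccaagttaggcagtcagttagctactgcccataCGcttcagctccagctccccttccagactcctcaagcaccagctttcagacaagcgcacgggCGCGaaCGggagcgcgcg
near Gm7054, chr13:106379088-106379152: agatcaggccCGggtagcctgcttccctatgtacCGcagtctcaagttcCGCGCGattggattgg
Hoxc11, chr15:102955791-102955898: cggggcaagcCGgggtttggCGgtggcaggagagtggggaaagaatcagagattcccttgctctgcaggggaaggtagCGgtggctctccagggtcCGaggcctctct

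At Atrx, 10 neighbouring CpGs were at 33.3% in Tet/Tet neurons, of which 9 were at 0% and 1 at 11.1% in R1 neurons. The other 35 CpGs of that tile were at or near 0% in both, apart from 1 that fell from 14.7% to 0%. The tile as a whole therefore went from 0.574% in R1 neurons to 7.54% in Tet/Tet neurons. At Mapt, 5 of 16 CpGs were at 100% in Tet/Tet neurons, and 4 of these 5 were at 0% in R1 neurons. Before this stretch the Mapt tile went the other way, with CpGs at 33.3% and 28.6% in R1 neurons that were at 3.33% and 0% in Tet/Tet neurons. At Hoxc11, 4 of 41 CpGs made the difference, at 33.3%, 33.3%, 50% and 100% against 0% each in R1 neurons. The remaining 37 Hoxc11 CpGs differed by at most 3.27 points, including a CpG that went from 22.8% to 25.4%. Every listed CpG was higher in the tiles near Gm46404 and near Gm7054, each of which had only 5. Near Gm7054 they were between 25% and 75% in R1 neurons and at 100% in Tet/Tet neurons.

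**Figure D1:**
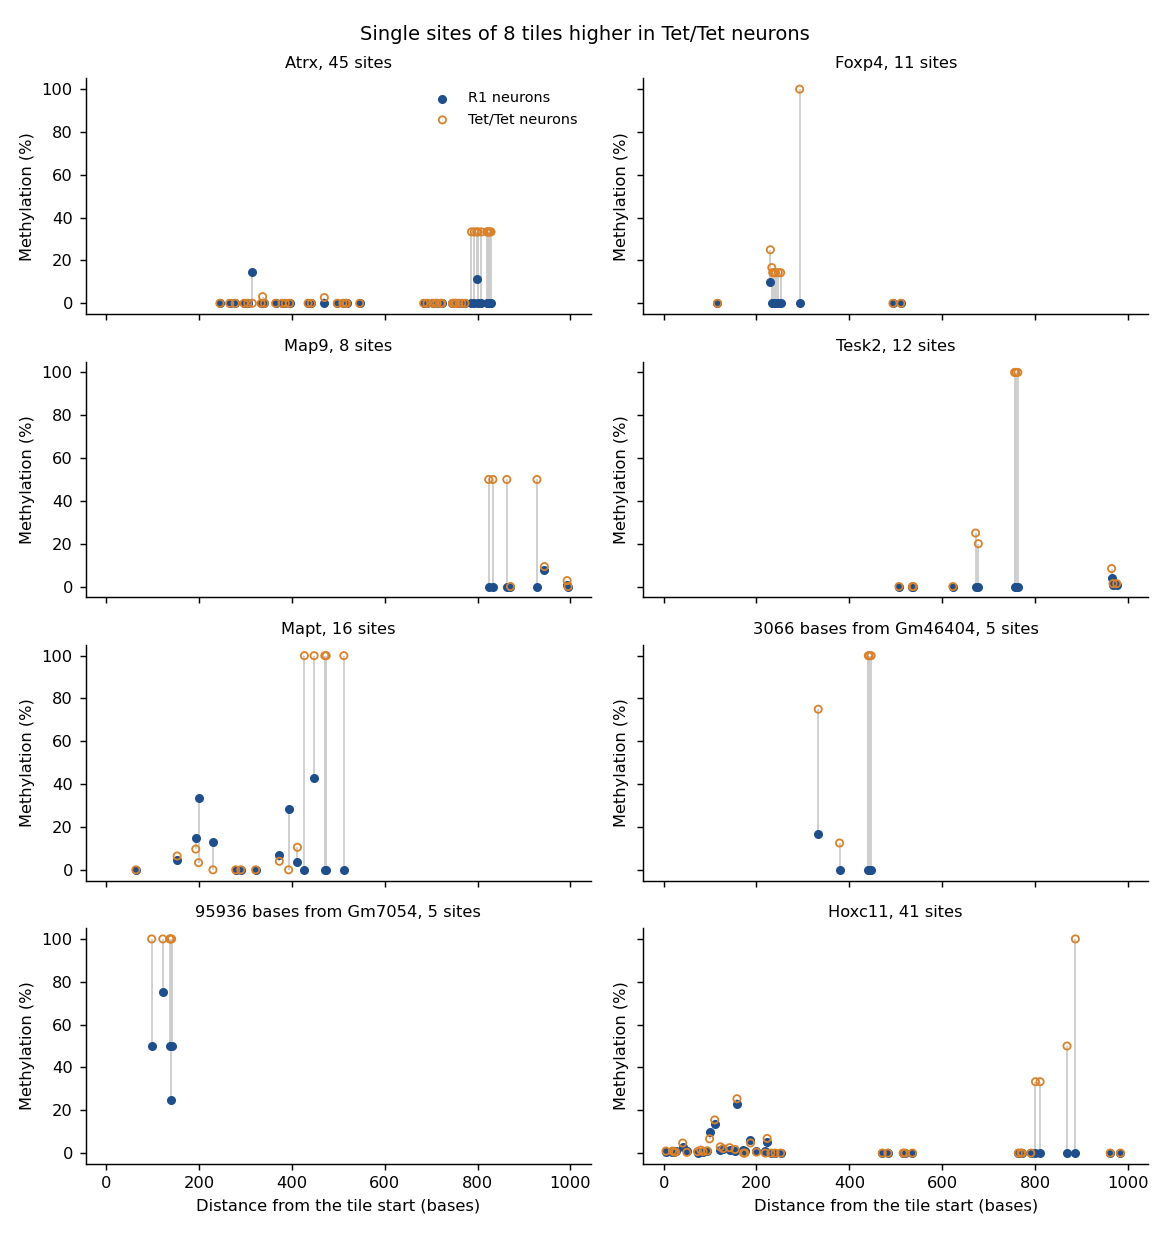
Methylation (%) of each CpG listed for both neuron libraries in the 8 tiles whose sequences are shown, by distance in bases from the tile's start. Filled points are R1 neurons, open points Tet/Tet neurons and grey lines join the values of 1 CpG, and the higher CpGs lie in short clusters, such as 10 CpGs at 33.3% at Atrx.

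Most of the 512 tiles were almost unmethylated in R1 neurons and remained low in Tet/Tet neurons. Their median level was 3.22% in R1 neurons (quartiles 1.52% and 8.02%, range 0% to 95%) and 12.8% in Tet/Tet neurons (quartiles 8.95% and 22.3%, range 5% to 100%). Over all tiles the medians were 92.5% and 11.9%. The difference was between 5 and 10 points in 317 tiles, between 10 and 20 in 132, between 20 and 50 in 58 and at least 50 in 5, so that 195 (0.1% of all tiles) were at least 10 points higher. The starting level of a tile limits how far it can fall or climb. Of the 15399 tiles under 10% in R1 neurons, 405 (2.63%) were among the 512, against 55 of 11942 tiles (0.461%) between 10% and 50%, 38 of 52525 (0.0723%) between 50% and 90% and 14 of 114755 (0.0122%) at or above 90%. Across the threshold the values were continuous: Pnpla7 and Zfp574 went from 0% to 5%, just inside, while Ahcyl1 (0.987% to 5.95%) and Zfp672 (2.18% to 7.14%) were just outside with a difference of 4.96 points each.

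**Figure D2:**
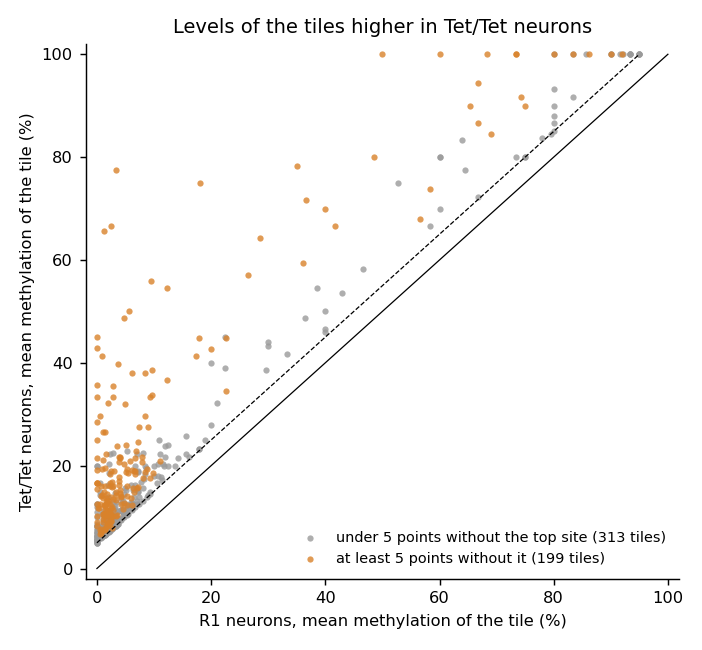
Mean methylation (%) of each of the 512 tiles in R1 neurons (horizontal axis) and Tet/Tet neurons (vertical axis). The solid line marks equal levels and the dashed line the 5-point threshold, orange points are the 199 tiles that stayed at least 5 points higher without their top CpG and grey points the 313 that did not, and most tiles of both kinds crowd below 10% on the horizontal axis.

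The differences rested on single CpGs or short stretches far more often than on whole tiles. The top CpG of a tile, the one with the largest difference, was 100 points higher in Tet/Tet neurons in 292 tiles and under 50 points in 88. Without it, 313 tiles (61.1%) dropped below the 5-point threshold and 125 of them were at or below 0 points, while 199 stayed above the threshold. Leaving out the top CpG cannot raise a tile's mean, and 317 of the 512 tiles were only 5 to 10 points higher. Part of these drops therefore follows from the selection. When the whole 100-base stretch holding that CpG was left out, 366 of the 471 tiles with CpGs in more than 1 stretch dropped below the threshold, 204 of them to 0 points or less, and 105 stayed above it. The median of the differences at a tile's CpGs, which a single CpG moves little, was 0 or less in 356 tiles and at least 5 points in 85. In 83 tiles only 1 CpG was at least 5 points higher, in 92 tiles there were 2 such CpGs and in 337 at least 3. In 47 of these 337 tiles all such CpGs had 1 common value in Tet/Tet neurons, equal to 3 decimals, as at Atrx.

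**Figure D3:**
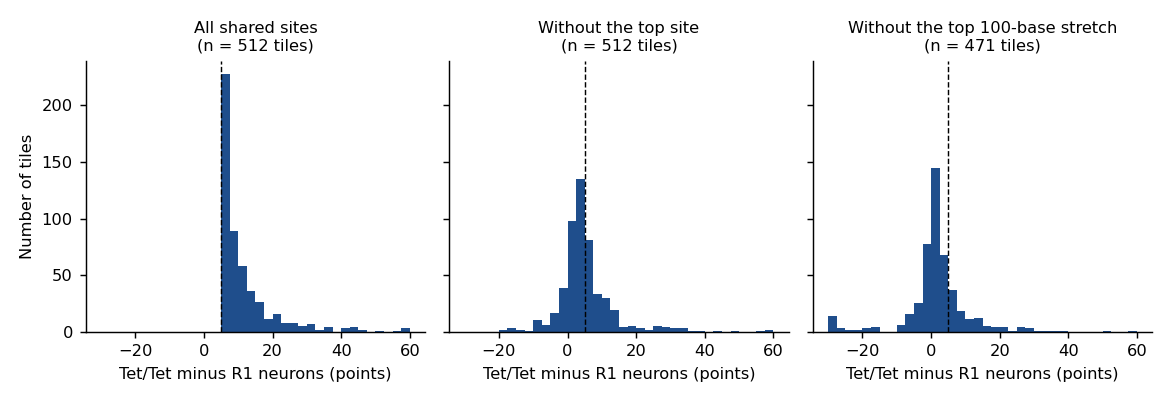
Number of tiles by the difference in percentage points between Tet/Tet and R1 neurons, from all shared CpGs, without the CpG of the largest difference, and without the 100-base stretch that holds it. Dashed lines mark 5 points and values beyond the ends are drawn in the outermost bars (-30 and 60 points). The medians of the 3 panels are 8.31, 3.99 and 0.53 points.

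Only 28 tiles (5.47%) had at least 75% of their CpGs higher in Tet/Tet neurons, and 26 of these stayed above the threshold without the top CpG. These tiles had a median of 6 listed CpGs. The largest difference was near Gm46404, from 3.33% to 77.5% over 5 CpGs. Next to Upp1, which encodes uridine phosphorylase, a tile 1103 bases from the gene start (chr11:9116001-9117000) went from 2.38% to 66.7% over 6 CpGs, and without its top CpG the difference was still 57.1 points. Zfp639, a zinc finger gene, had a tile within 1 kb of its start (chr3:32511001-32512000) that went from 1.28% to 65.6%, with 7 of 9 CpGs higher and 1 lower. In the annotated body of Six3 (chr17:85624001-85625000), a homeobox gene of forebrain and eye development, 8 of 9 CpGs were higher, and the level went from 9.52% to 55.9%. At Mmp9, encoding a matrix metalloproteinase, the tile went from 12.2% to 54.6% over 5 CpGs. Fgf5, a fibroblast growth factor gene, differed at all 6 of its CpGs, from 2.75% to 33.4% on average. None of these 6 tiles had a CpG inside an MspI fragment of 40 to 220 bp, and each had at most 3 CpGs listed in all 4 libraries. Of the 28 tiles, 19 had no fragment CpG, while the tile near Gm7054 had all of its CpGs in fragments. The 7 of the 28 with at least 5 CpGs listed in all 4 libraries were all at least 5 points higher over those CpGs. This outcome is favoured by the selection, because those CpGs are among the ones that chose the tiles. At Setbp1 they were all of its CpGs.

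Tiles with more listed CpGs had smaller differences. The median difference was 11.1 points in the 215 tiles with 5 to 9 CpGs, 7.95 in the 126 with 10 to 19, 6.68 in the 100 with 20 to 39 and 6.45 in the 71 with at least 40. In the same order, these were 0.164%, 0.294%, 0.885% and 0.748% of all tiles with that number of CpGs. Among tiles with at least 10 CpGs, the largest difference was in the body of Rsbn1l (chr5:20952001-20953000), from 0.947% to 41.4% over 18 CpGs, 13 of them higher. Tesk2 went from 0.496% to 29.7% over 12 CpGs and Mapt from 9.26% to 33.4% over 16. Efna1, which encodes an ephrin ligand, went from 8.44% to 29.7% over 16 CpGs, and its difference was -3.12 points without the top stretch. At Pbk, a mitotic kinase gene, 4 of 13 CpGs were higher and the level went from 0% to 19.2%. The host gene of the neuronal microRNA miR-124, Mir124a-1hg, went from 4.01% to 21.8% over 26 CpGs, although only 7 of them were higher and 12 were lower.

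The CpGs that made the differences were not typical of their tiles. The 512 tiles held 10230 shared CpGs, of which 4029 were higher in Tet/Tet neurons, 2666 lower and 3535 equal. Of the 2189 that were at least 5 points higher, 81.9% were at 0% in R1 neurons and 34.5% at 100% in Tet/Tet neurons, values that their selection favours. Features that the selection did not use also differed. Only 20.6% of these CpGs lay inside MspI fragments of 40 to 220 bp, taken here as the size range of RRBS, against 51.5% of the other CpGs in the same tiles and 29.4% of all 3286239 shared CpGs. Likewise, 32.3% of them were listed in both ESC libraries, against 67% of the other CpGs and 47% of all. In 212 of the 512 tiles (41.4%) no shared CpG lay inside such a fragment, against 48.8% of all tiles. Among tiles under 10% in R1 neurons it was 138 of the 405 higher tiles (34.1%), against 10.7% of all such tiles. Read depth is not in the tables, so its part in these differences was not tested.

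**Figure D4:**
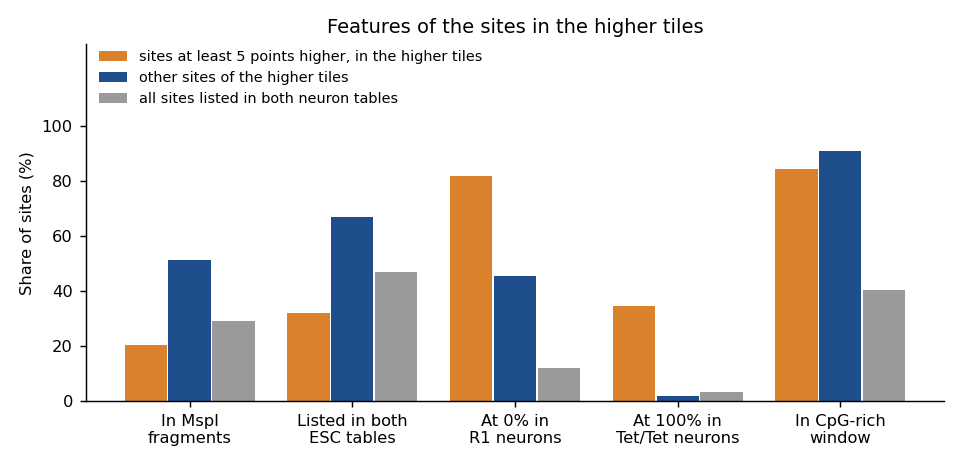
Share (%) of CpGs with each feature, for the 2189 CpGs at least 5 points higher in Tet/Tet neurons (orange) and the other CpGs (blue) of the 512 tiles, and for all 3286239 CpGs listed in both neuron libraries (grey). The orange bar is the lowest for MspI fragments (20.6%) and for CpGs listed in both ESC libraries (32.3%), and the levels at 0% and 100% are partly fixed by how the orange CpGs were chosen.

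Most tiles did not pass the threshold over the CpGs inside fragments or over those listed in every library. Of the 225 tiles with at least 5 shared CpGs inside fragments, 71 were still at least 5 points higher over those CpGs and 90 were at 0 points or less, with a median of 0.30 points. Over all 46681 tiles with enough fragment CpGs, 0.371% were at least 5 points higher. Of the 285 tiles with at least 5 CpGs listed in all 4 libraries, 71 were still at least 5 points higher and 112 were at 0 points or less, with a median of 0.59 points, beside 0.206% of all 80233 such tiles that were at least 5 points higher. Rsbn1l was 40.4 points higher over 18 CpGs and went from 2.44% to 1.63% over the 7 listed in all 4 libraries. Mapt went from 15% to 4.86% over 7 such CpGs.

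Hoxa4, a homeobox gene that patterns the body axis, had the most CpGs that were at least 5 points higher in 1 tile. These were 20 of its 107 CpGs, while 45 were higher by any amount and 48 were lower. The Hoxa4 tile (chr6:52191001-52192000) went from 2.02% in R1 neurons to 13.2% in Tet/Tet neurons, and the difference was 10.4 points without the top CpG and 5.29 points without the top stretch. Over the 96 Hoxa4 CpGs listed in all 4 libraries the ESC levels were 1.56% (R1) and 1.84% (Tet/Tet), and the neuron levels 1.99% and 5.87%. Tet/Tet neurons were thus the highest of the 4 libraries, by less than 5 points.

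CpGs that the rule did not use gave a further measure. In the tiles under 10% in R1 neurons, 1064 CpGs of the 405 higher tiles were listed only for Tet/Tet neurons, with a mean of 12.1%, and 1413 only for R1 neurons, with a mean of 10.5%. In all 15399 tiles under 10%, the means were 4.95% over 39107 CpGs listed only for Tet/Tet neurons and 10.2% over 53329 listed only for R1 neurons. Over all 512 tiles the order was the reverse, with means of 13.6% for CpGs listed only for Tet/Tet neurons (1176) and 16.3% for those listed only for R1 neurons (1599), and both medians were 0%. These are different CpGs in the 2 libraries, and CpGs close to each other can share reads.

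By location, 316 tiles (61.7%) lay within 1 kb of an annotated gene start, 114 lay elsewhere in a gene and 82 between genes. Tiles near gene starts made up 16.9% of all tiles, and 0.961% of them were at least 5 points higher, against 0.115% of gene-body and 0.131% of intergenic tiles. Tiles near gene starts moved from the highest to the lowest share among tiles under 10% in R1 neurons, where 2.33% of tiles near gene starts (292 of 12511), 3.19% of gene-body tiles (69 of 2166) and 6.09% of intergenic tiles (44 of 722) were higher. The top CpG lay in an intron in 207 tiles, outside genes in 158, in an untranslated region in 73, in a coding exon in 41 and in an exon of a non-coding transcript in 33. No such count was made over all tiles, so it cannot be said whether any of these places is over-represented. In 403 tiles (78.7%), at least 50% of the shared CpGs lay in a CpG-rich window, against 35% of all tiles. Under 10% in R1 neurons the shares were 86.2% of the higher tiles and 95.8% of all. The tiles were less CpG-rich than other tiles of low methylation, with a median of 30 CpGs in the sequence and 51.1% GC, against 55 CpGs and 57.1% GC in all tiles under 10% in R1 neurons and 17 CpGs and 48.4% GC in all tiles.

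The X chromosome held 35 of the tiles, 0.726% of its 4824, against 0.250% of autosomal tiles. Among tiles under 10% in R1 neurons the shares were 3.86% (25 of 647) and 2.57% (379 of 14749). Chromosome 13 held 45, which was 0.437% of its tiles and 4.11% of those under 10%. On the Y chromosome, 4 of 413 tiles (0.969%) were higher. The tiles lay almost singly along the chromosomes. Of 475 directly adjacent tiles with enough CpGs, 8 were themselves at least 5 points higher, 101 were higher by any amount, and the median neighbour differed by -1.98 points. The median neighbour level was 4.8% in R1 neurons. For comparison, 0.263% of all tiles and 2.63% of those under 10% in R1 neurons were at least 5 points higher.

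The 4 adjacent pairs were at Ptms, which encodes parathymosin, Ccnd2 (cyclin D2), Ogt, the X-linked gene of the enzyme that attaches O-GlcNAc to proteins, and Atrx. At Ogt the levels went from 0.50% to 14.9% in the tile before the gene start and from 2.38% to 10.7% in the tile at the start, and without the top CpG the differences were 2.16 and 0.64 points. At Atrx the neighbour of the tile described above went from 1.11% to 9.63% over 9 CpGs, 5 of them higher and none lower. Over the Atrx CpGs listed in all 4 libraries, the first tile (17 CpGs) was at 2.41% (R1) and 1.25% (Tet/Tet) in ESCs and at 1.52% and 18% in neurons. The second Atrx tile (5 CpGs) was at 0%, 0%, 2% and 17.3% in the same order. At Ccnd2 the levels went from 0.621% to 5.97% and from 0.354% to 11.8%, and over CpGs listed in all 4 libraries the differences were -0.29 and 0.61 points. The Ptms pair went from 2.85% to 13% and from 0% to 33.3%, the latter with 2 of 6 CpGs higher.

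A smaller set of 52 tiles was already at or above 50% in R1 neurons and higher still in Tet/Tet neurons, where the median tile of the genome was at 11.9%. Of these 52, 49 had 5 to 7 listed CpGs, 25 were at 100% in Tet/Tet neurons, 23 were at least 50% repeat sequence (soft-masked in the reference) and 7 lay within 1 kb of a gene start. Over all tiles the median was 7 listed CpGs, and 16.9% lay within 1 kb of a gene start. The other counts were not set against all tiles. At Ncbp3, which encodes a cap-binding protein, a coding-exon tile went from 73.3% to 100% over 5 CpGs. A tile 11510 bases from the X-linked pseudogene Gm15187 went from 68.3% to 100% over 5 CpGs. Only 3 of the 52 had at least 5 CpGs listed in all 4 libraries.

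Genes of 8 groups were looked up among the tiles, where a gene was counted when a higher tile overlapped it or the 1 kb before its start. Of all 14699 protein-coding genes with a tile, 474 (3.22%) had a higher tile, which was 0.344% of their 116968 tiles, and their median tile difference was -72.6 points. Histone genes (symbols starting with Hist) had 4 higher tiles among 80 (5%), which belonged to 5 of 64 genes, and 22 tiles at least 5 points lower, with a median of -1.39 points. Homeobox genes (Hox) had 6 among 209 (2.87%), belonging to 6 of 39 genes, with 129 lower and a median of -7.69 points. For comparison, 2.63% of all tiles under 10% in R1 neurons were higher. Zinc finger genes (Zfp) had 17 among 1676 (1.01%), with a median of -68.1 points. The other groups had 0 to 2 higher tiles each: 2 of 233 for neuronal genes, 1 of 131 for pluripotency genes, 1 of 116 for the methylation machinery, 1 of 326 for imprinted genes and 0 of 124 for germline genes, with medians between -75.1 and -65.5 points.

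In the histone clusters, the tile shared by Hist1h2ae and Hist1h2bg, which encode an H2A and an H2B histone, was at 0% at all 14 CpGs in R1 neurons and at 25% on average in Tet/Tet neurons, with 6 CpGs higher. Hist1h3e went from 6.51% to 14.9% over 30 CpGs, 10 of them higher and 11 lower, but over the 23 CpGs listed in all 4 libraries it was at 1.97% and 2.04% in neurons and at 1.87% and 1.64% in ESCs. Among homeobox genes, the tile shared by Hoxc5 and Hoxc6 went from 5.27% to 11.5%, and the difference was -0.46 points without the top CpG. The neuronal group had the tile at Nefl (neurofilament light chain), which also overlaps Nefm in the annotation. It went from 1.17% to 6.52% over 60 CpGs, of which 22 were higher and 9 lower. Over the 40 Nefl CpGs listed in all 4 libraries the ESC levels were 0.395% (R1) and 1.66% (Tet/Tet), and the neuron levels 1.39% and 5.61%. Stmn2, encoding a microtubule regulator of neurons, went from 1.56% to 9.71% over 17 CpGs, 3 of which were at least 5 points higher. At Tbx3, a gene of a pluripotency factor, 1 of 14 CpGs was higher and 4 were lower, and the tile went from 0.99% to 7.91%. Tet2, which encodes one of the TET enzymes, went from 3.26% to 8.33% with 2 of 12 CpGs higher and 3 lower. Without the top CpG the Tet2 difference was 0.98 points. This tile lay 1139 bases from the gene's start and is named here after its values were seen. The tile shared by the imprinted neighbours Peg10 and Sgce went from 0% to 21.4% with 2 of 7 CpGs higher.

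The ESC libraries took no part in choosing the tiles. In the 285 tiles with at least 5 CpGs listed in all 4 libraries, the median ESC level was 2.08% for R1 and 2.39% for Tet/Tet, and the median neuron level 3% and 4.40%. The median difference between Tet/Tet and R1 ESCs was 0.24 points (quartiles -0.29 and 0.94). Both ESC levels were under 10% in 257 of the 285 tiles (90.2%), against 29.6% of all tiles and 97.8% of those under 10% in R1 neurons. Tet/Tet neurons were the highest of the 4 libraries in 138 (48.4%), against 3.44% and 18.7%, a count to which the choice of the tiles contributes. Of the 285, 274 were themselves under 10% in R1 neurons. Among these 274, both ESC levels were under 10% in 252 (92%) and Tet/Tet neurons were the highest in 131. In all 13941 tiles under 10% in R1 neurons with enough CpGs, the 4 medians were 1.91%, 2.15%, 3% and 2.19% in the same order. Both ESC medians of the chosen tiles were thus slightly above those of all tiles that were low in R1 neurons.

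**Figure D5:**
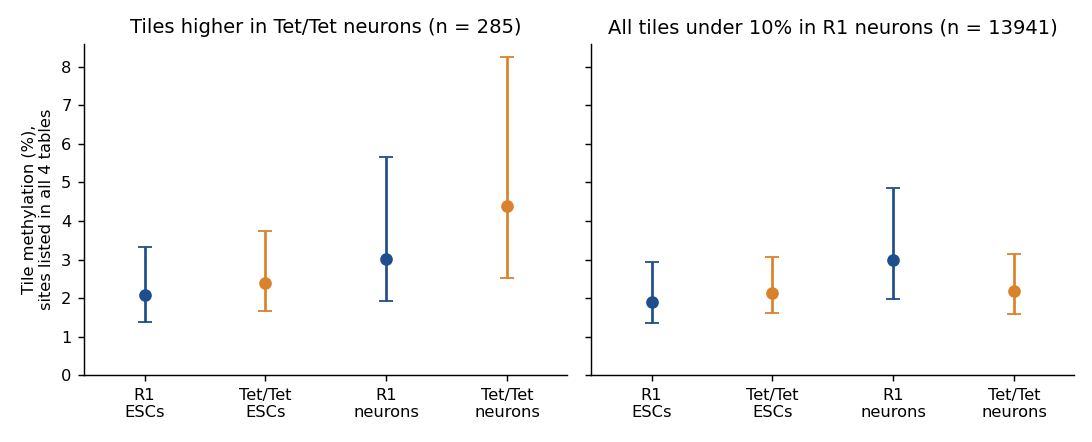
Median (points) and quartiles (bars) of tile methylation (%) over CpGs listed in all 4 libraries, for the 285 tiles higher in Tet/Tet neurons that had at least 5 such CpGs and for the 13941 tiles under 10% in R1 neurons. The ESC medians lie between 1.91% and 2.39% in both panels, while the Tet/Tet neuron median is 4.40% on the left and 2.19% on the right.

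In 258 of the 285 tiles the ESC lines differed by less than 5 points. Larger differences were rarer than in all tiles but more frequent than in all tiles under 10% in R1 neurons. Tet/Tet ESCs were at least 5 points higher in 15 of the 285 (5.26%), against 27.8% of all 80233 tiles and 1.28% of those under 10% in R1 neurons. They were at least 5 points lower in 12 (4.21%), against 14.9% and 1.5%. Of the 274 tiles under 10% in R1 neurons, 13 (4.74%) were higher and 9 (3.28%) lower. Over all 512 chosen tiles the median was 12 CpGs shared by the neuron libraries, and over all 15399 tiles under 10% in R1 neurons it was 40. These sets are larger than those behind the shares, and the part of CpG number in the shares was not tested.

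A few more tiles, chosen here after their values were seen, show how ESC and neuron values could combine. The tile at Ddx3y, a Y-linked RNA helicase gene, went from 7.75% to 23.6% in ESCs and from 8.37% to 16.8% in neurons over the same 16 CpGs. At Fgf13, which encodes a fibroblast growth factor homologue, 5 CpGs went from 0% to 20% in ESCs and from 0% to 20% in neurons. Stmn2 went from 1.76% to 22.3% in ESCs over 12 CpGs, a larger difference than the 2.21% to 5.42% in neurons over the same CpGs. At Jph1, a junctophilin gene, the ESC levels were 1.54% and 41.3% over 15 CpGs, and the neuron levels over the same CpGs were 9.62% and 9.20%. At Txlng, an X-linked taxilin gene, all 34 CpGs were listed in all 4 libraries, and the tile was at 1.51% and 2.19% in R1 and Tet/Tet ESCs and at 22.6% and 34.6% in the corresponding neurons. In neurons 16 of the Txlng CpGs were higher and 11 lower. The Txlng neuron difference was -1.18 points without the top stretch.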

How the data were processed

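RRBS had been run on ESCs and ESC-derived neurons of the R1 and Tet/Tet lines. The submitters' processing notes name Trim Galore 0.6.4, FastQC 0.11.8, Bismark 0.19.0, MethylDackel 0.3.0 and the build mm10. The authors deposited 1 table per library, which gives the methylated percent at every listed CpG, with 2311939 to 5298360 CpGs listed per library. The percentages are not normalized between libraries. They come without read counts, so the depth per site and per sample is unknown, a CpG read once weighs as much as one read often, and no interval, floor or Fisher's exact test, the study's own test, could be computed. With 1 library per condition there is no replicate error and no test between conditions.

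Tiles, CpG-rich windows (200 bases, at least 50% GC, observed over expected CpG above 0.6) and MspI fragments were set on GRCm38 (mm10), from which the sequences were read, and genes were those of GENCODE M21. Python 3.11.15, numpy 2.4.6, pandas 2.3.3 and matplotlib 3.10.9 were used, and the tile calculations were tested on simulated data. Of the Tet/Tet neurons, chromosomes 8 and 9, chromosome 7 beyond position 55762981 and chromosome 10 before position 128096803 were not analysed here. This includes Dnmt1. The values of 1 further tile are not reported here.

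The tiles and gene lists were chosen with earlier results of these data known. Tiles were named when they were among the 15 largest differences with at least 10 CpGs, or among the 15 largest with at least 75% of CpGs higher that stayed above the threshold without the top CpG, when they were adjacent, within 1 kb of the start of a listed gene, or the 2 nearest the threshold on either side. Others are said to be chosen after their values were seen. A tile was named by a gene start within 1 kb, otherwise by the gene it overlapped or the nearest gene start. The alternatives changed the minimum of CpGs, the threshold, the tile grid, the average, the CpGs used and the chromosomes.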

Additional observations from a re-analysis of the deposited data

Results flagged for a closer look

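In 11 tiles reported here, the difference between Tet/Tet and R1 cells had opposite signs in neurons and ESCs. Tet/Tet neurons were at least 5 points higher over the CpGs of both neuron libraries. Tet/Tet ESCs were at least 5 points lower over the CpGs listed in all 4 libraries. Over the latter CpGs the neurons were at least 5 points higher in 6 of the 11, higher by less in 3 (Gtf2h5, Cfap126 and Rtn3) and lower in 2 (A930032L01Rik and Sesn2). At Kpna6, Setbp1, Gphn and Gria3 the latter CpGs were all those that the rule used. Their neuron difference was therefore fixed by the choice of the tiles and is no further check. Each stage was 1 library per line, and the difference between the stages was not tested. The ESC differences were -79.7 points at Kpna6 (an importin gene, 82.7% to 2.96% over 5 CpGs), -45.2 at Setbp1 (68.6% to 23.3% over 5) and -21.7 at Gphn (86.7% to 65% over 5). The neuron differences were 5.37 points at Kpna6, 31.4 at Setbp1 and 20 at Gphn, and without the top CpG they were -1.63, 14.3 and 0 points. The ESC difference was -19.9 points at A930032L01Rik, -12.2 at Gria3, -9.63 at Gtf2h5, -8.85 near Cfap126, -8.49 at Sesn2, -7.69 at Tesk2, -6.89 at Mnt and -6.02 at Rtn3. Gtf2h5, over 28 CpGs, and Mnt, over 41, had the most CpGs among the 11. At Mnt the ESC levels were 11% (R1) and 4.13% (Tet/Tet), and the neuron levels 4.55% and 12.9%.

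Outside the chromosomes analysed, a mitochondrial tile starting at position 5001 exceeded its R1 level by 11.1 points in Tet/Tet neurons, over 6 CpGs. The other mitochondrial tiles with enough CpGs differed by -46.4, -9.36, 0.06 and -0.43 points.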

How the results depend on the processing

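No paired analysis was possible because each condition is 1 library, so the groups share only 1 replicate number, and no replicate could be left out. A tile grid shifted by 500 bases (548 tiles, 0.282% of those tested) and leaving out X and Y (473, 0.250%) changed the number of higher tiles by little. It was 297 (0.467% of the tiles tested) with at least 10 CpGs, 1050 (0.298%) with at least 3 and 195 (0.1%) at a 10-point threshold. The median over CpGs gave 237 (0.122%) and the mean over 100-base stretches 770 (0.396%). CpGs inside MspI fragments gave 173 (0.371%) and CpGs listed in all 4 libraries 165 (0.206%). In that order, the share with at least 75% of CpGs higher was 2.02%, 6.10%, 12.8%, 11.8%, 3.51%, 13.3% and 17%, and the share below the threshold without the top CpG was 59.3%, 72%, 56.4%, 48.9%, 65.8%, 58.4% and 67.9%. The share within 1 kb of a gene start was 77.8%, 39.3%, 48.7%, 34.2%, 63.6%, 72.3% and 72.1%. The median R1 neuron level moved to 7.14% with at least 3 CpGs, 5.16% at 10 points and 0% from medians, and the median ESC difference to 0 points from medians and 0.16 points from CpGs listed in all 4 libraries.

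Of 62 named tiles, 37 had at least 3 CpGs listed in all 4 libraries, fewer than the 5 of the main rule, and were recomputed over them. Of the 37, 16 changed sign, including Sec14l2 and Zfp24 with only 4 such CpGs each. The differences were then -10.2 points at Mapt and Mid1, -7.57 at Zfp248, -6.82 at Sec14l2, -6.56 at Zfp931, -3.06 at Mir124a-1hg, -2.04 at Mrps25, -1.87 at Ptms, -0.80 at Rsbn1l and Hist3h2a, -0.58 at Hoxc6, -0.56 at Ftsj3, -0.53 at Zfp950, -0.39 at Tbx3, -0.29 at Ccnd2 and -0.10 at Zfp24. Without the top CpG, 4 changed sign: -4.37 at Zfp931, -0.46 at Hoxc6, -0.39 at Zfp395 and -0.24 at Tbx3. From medians, 5 did: -1.57 at Zfp931, -1.34 at Zfp467, -0.997 at Mir124a-1hg, -0.76 at Hoxc6 and -0.48 at Hist1h3e. The cause was not tested.

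The depth per CpG is unknown, and a percentage of 100% can come from few or many reads. With 1 library per condition there is also no replicate error, so it cannot be told here which differences lie within counting error or the spread between cultures.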
